A study of Mus musculus with 6 samples.

Results

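The 9 genes Bcl11b, Meis2, Lhx2, Emx2, Gli3, Atf5, Ebf1, Ebf2 and Nhlh1 code for transcription factors tied to the making and the identity of vomeronasal sensory neurons. They were chosen by name, each read from the probe set with the highest mean among those the platform annotation gives to that gene alone, and they are 9 of the 22180 genes tested. RNA of whole vomeronasal organs (VNOs) of mice at postnatal day 17 was measured on 1 Affymetrix whole-transcript array per sample, 3 wild-type and 3 AP-2e null. AP-2e is the DNA-binding protein that the gene Tfap2e codes for. The labels name no strain, sex, null allele or number of animals per sample, and all p-values measure the spread between these samples. The comparison asks how RNA levels differ between AP-2e null and wild-type VNOs.

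The VNO is the mouse's pheromone-sensing organ, and its sensory neurons renew from progenitors throughout life. The descendants of these progenitors become apical neurons, which carry V1R receptors, the G protein subunit Gnai2 and the factor Meis2, or basal neurons, which carry V2R receptors, Gnao1 and AP-2e. Bcl11b, a zinc-finger repressor also known as Ctip2, takes part in the choice between these fates and is read here as the basal factor. Because RNA came from whole organs, fewer cells of a type and less RNA per cell cannot be told apart.

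Promoter sequence is shown for the basal factor Bcl11b, the apical factor Meis2 and the early neuronal factor Nhlh1, because the genotypes differ in a factor that binds DNA at the AP-2 motif. RefSeq (GRCm38.p6) promoter windows were found for 8 of the 9 genes, 11 windows in all, since Lhx2, Atf5 and Ebf1 have more than 1, and Ebf2 had none. Each line below gives the 250 bases before an annotated start, 5′ to 3′ on the gene's strand, with the AP-2 motif GCCNNNGGC in capitals. The Bcl11b window is chr12:108003415-108003664, strand -, the Meis2 window is chr2:116064620-116064869, strand -, and the Nhlh1 window is chr1:172057597-172057846, strand -. For Bcl11b and Meis2 the annotated gene also extends upstream of this start.
Bcl11b: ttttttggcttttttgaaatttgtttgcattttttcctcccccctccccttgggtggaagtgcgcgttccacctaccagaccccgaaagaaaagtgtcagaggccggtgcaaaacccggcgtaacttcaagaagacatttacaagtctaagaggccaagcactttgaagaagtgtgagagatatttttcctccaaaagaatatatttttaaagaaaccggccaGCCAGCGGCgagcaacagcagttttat
Meis2: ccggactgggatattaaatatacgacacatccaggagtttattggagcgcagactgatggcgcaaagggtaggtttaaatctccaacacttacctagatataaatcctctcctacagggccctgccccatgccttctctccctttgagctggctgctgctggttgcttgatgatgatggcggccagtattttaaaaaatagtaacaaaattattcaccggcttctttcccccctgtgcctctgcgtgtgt
Nhlh1: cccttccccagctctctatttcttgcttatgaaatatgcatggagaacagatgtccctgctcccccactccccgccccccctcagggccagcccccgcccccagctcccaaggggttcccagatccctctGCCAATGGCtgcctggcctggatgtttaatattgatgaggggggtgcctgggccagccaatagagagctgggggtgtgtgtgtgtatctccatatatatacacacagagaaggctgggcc

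The AP-2 motif, which is its own reverse complement, stood in 3 of the 11 windows of these genes and in 13.7% of all 32851 promoter windows of the same length. In Bcl11b it read GCCAGCGGC, beginning 27 bases before the start, and in Nhlh1 GCCAATGGC, beginning 120 bases before it. The window of the Lhx2 start further downstream held GCCCGCGGC and GCCGTCGGC, which overlap and begin 182 and 175 bases before that start. The Meis2 window held none. The O/E motif of the Ebf factors (in 0.779% of all windows) and the homeodomain motif TAATTA (also its own reverse complement, in 4.84%) were in 0 of the 11 windows. The Meis motif TGACAG, searched on both strands and present in 15.9% of all windows, was in 1 of the 11, a window of Atf5 that held it 2 times. These matches describe letters in the windows and were set against no measure of binding. The windows were also not matched for base composition, while all fixed letters of the AP-2 motif are G or C. G and C made up 44.8% of the Bcl11b window, 47.6% of that of Meis2 and 58.4% of that of Nhlh1. They made up 68.4% of the Lhx2 window with the motif, and the median over all windows was 52.4%.

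Tfap2e, the gene named in the genotype, was lower on every AP-2e null array. Wild-type replicates 1, 2 and 3 read 6.46, 6.76 and 6.92 on the log2 scale, and the AP-2e null arrays in the same order read 5.97, 6.09 and 6.04. The difference was -0.68 (SE 0.13, adjusted p = 0.431 in limma), which did not pass over all genes. Whether its probes lie in the altered sequence is unknown here, so this reading is a weak check of the labels. The organ's markers were present on the arrays, with mean log2 signals of 9.91 for Omp and 6.98 for Trpc2. Array medians over all probe sets lay between 4.997 and 5.079. AP-2e null replicate 1 had an Xist signal of 10.64 against 3.55 to 3.58 on the other arrays. The labels name no sex and the fit held no term for it, so the part of sex in the differences was not tested. The cartilage list stood highest on AP-2e null replicate 2, where its mean reached 8.29, against 6.46 to 6.63 in wild-type VNOs.

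None of the 9 factors passed the threshold between genotypes, an adjusted p under 0.05 over all genes in limma, where 0.225% of all genes passed. Their adjusted p-values lay between 0.873 and 0.972, and 1 of the 9, Meis2, had an unadjusted p under 0.05, as did 4.4% of all genes. Means were higher in AP-2e null VNOs for 6 factors and lower for 3, and 6 of the 9 differed by less than 0.05 on the log2 scale. The median difference of the 9 was 0.03, beside -0.00052 over all genes. For all 9 the 95% interval of the difference lay within 1 log2 unit of 0. A 2-fold change of whole-organ array signal in either direction was thus outside it. The widest reach was a 1.49-fold fall for Atf5 and a 1.40-fold rise for Meis2. A p that misses the threshold does not show equal levels. The intervals give the differences in whole-organ array signal that these data still allow, and changes within 1 cell type were not measured.

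**Figure D1:**
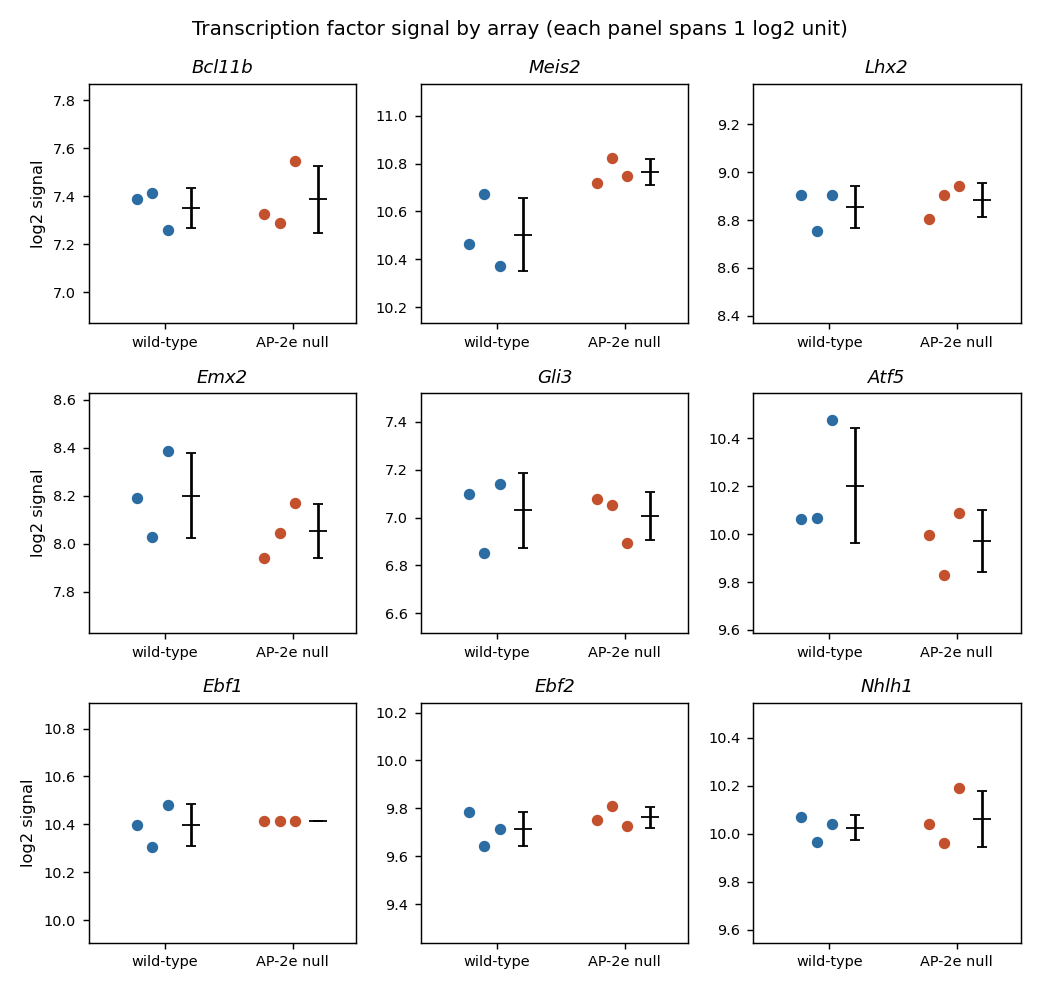
Log2 signal (y axis, each panel spanning 1 log2 unit) of the 9 factors in wild-type (blue) and AP-2e null (red) VNOs. Points are replicates 1, 2 and 3 from left to right, and black bars are the mean ± SD over 3 arrays. The genotypes overlap in every panel but that of Meis2, whose AP-2e null arrays (10.72 to 10.82) all lie above the wild-type arrays (10.37 to 10.67).

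Bcl11b, the basal factor, had nearly the same mean in both genotypes. Its log2 signal was 7.39, 7.41 and 7.26 in wild-type replicates 1, 2 and 3, and 7.33, 7.29 and 7.55 on the AP-2e null arrays in the same order. The groups overlapped, and AP-2e null replicate 3 held the highest value and wild-type replicate 3 the lowest. The means were 7.35 ± 0.08 and 7.39 ± 0.14 (SD, n = 3 each). The difference of 0.03 (SE 0.09, adjusted p = 0.946 in limma) had a 95% interval from -0.19 to 0.26, or from 0.876-fold to 1.20-fold. Without AP-2e null replicate 3 the difference was -0.05.

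Other genes of basal neurons were lower on the same arrays. The list of 12 basal markers, among them the 7 V2R family C co-receptors, was chosen with earlier results of these data known. Its counts therefore describe these genes and test nothing. Of the 12, 11 were lower in AP-2e null VNOs with no overlap between genotypes. Over all genes, 7.06% did not overlap, and 3.64% did not and were lower. In limma 4 of the 12 passed. All 4 were co-receptor genes, with Vmn2r5 at -2.97, Vmn2r4 at -2.80, Vmn2r6 at -1.76 and Vmn2r7 at -1.75 on the log2 scale. Gnao1 differed by -0.68 (adjusted p = 0.331) and Gng8, a G protein gamma subunit, by 0.06. The list had a median difference of -1.04. Gnao1 and Bcl11b were compared within each array, a contrast chosen after their values were seen, in which only the shift between genotypes can be read. Gnao1 minus Bcl11b was 3.06, 2.97 and 3.51 in wild-type and 2.46, 2.59 and 2.35 on the AP-2e null arrays of replicates 1, 2 and 3. All AP-2e null arrays lay below all wild-type arrays, a shift of -0.71 with an exact 2-sided permutation p of 0.1, below which 3 arrays against 3 cannot go (0.3 adjusted over the 3 such contrasts made).

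Meis2, the apical factor, had the largest difference of the 9 and did not pass. It read 10.46, 10.67 and 10.37 in wild-type replicates 1, 2 and 3. On the AP-2e null arrays, in the same order, it read 10.72, 10.82 and 10.75. Every AP-2e null array was above every wild-type array, and wild-type replicate 2 came closest to them. The means were 10.50 ± 0.15 and 10.76 ± 0.05 (SD, n = 3 each). The difference of 0.26 (SE 0.09), or 1.20-fold, had a 95% interval from 0.03 to 0.49 and an unadjusted p of 0.0315, with an adjusted p of 0.873 in limma. Genes higher in AP-2e null VNOs with no overlap made up 3.42% of all genes. With single arrays left out the difference lay between 0.19 and 0.34, and its unadjusted p was under 0.05 in 9 of 14 alternative settings.

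Of the 6 other apical markers 3 were higher and 3 lower on average, with 0 past the threshold in limma and a median difference of 0.03. Gng2, a G protein gamma subunit, at 0.36 and Kirrel2, an adhesion gene of axon sorting, at -0.35 were the 2 with an unadjusted p under 0.05, against 4.4% of all genes. These 2 also had no overlap between genotypes, as had 7.06% of all genes, and they differed in opposite directions. The shift of Bcl11b minus Meis2 within arrays was -0.22 (exact 2-sided permutation p of 0.2, adjusted 0.3), and that of Gnai2 minus Meis2 was -0.15 (exact permutation p of 0.5, adjusted 0.5). Meis2 is also made outside neurons, in mesenchyme and vessel walls among other places. Of 8 smooth muscle and pericyte markers, 7 were higher on average in AP-2e null VNOs and 2, Pdgfrb at 0.26 and Mcam at 0.25, had no overlap, where 3.42% of all genes were higher with no overlap, while the mean of the list ran from 9.51 to 9.79 in wild-type and from 9.68 to 9.86 in AP-2e null VNOs. Of 7 fibroblast markers, 5 had higher means and 2, Pdgfra at 0.22 and Dcn at 0.16, had no overlap, and the mean of the list ran from 11.23 to 11.33 and from 11.30 to 11.51. Endothelial markers were higher on average for 5 of 6, with no overlap for Pecam1 at 0.17, and the mean of the list ran from 7.59 to 7.82 and from 7.73 to 7.86. Macrophage markers were higher for 5 of 7, with no overlap for Mrc1 at 0.21 and Csf1r at 0.16, and the mean of the list ran from 7.67 to 7.86 and from 7.85 to 7.92. All 5 measured markers of ensheathing glia were higher on average, each with overlap, and the mean of the list ran from 6.20 to 6.82 and from 6.55 to 7.21. Frzb and S100b exceeded all wild-type arrays on AP-2e null replicate 2 alone, at 7.93 and 6.99. Fabp7 read 7.23 on wild-type replicate 1, and the other wild-type arrays lay above all AP-2e null arrays. None of the genes of these 5 lists passed in limma. Pdgfrb, Mcam, Pdgfra and Mrc1 had an unadjusted p under 0.05, as had 4.4% of all genes. The 3.42% share of all genes higher with no overlap applies to each of the 5 lists. Lower on average were Tagln at -0.05, Col1a1 at -0.01, Col1a2 at -0.03, C1qa at -0.10, Adgre1 at -0.01 and Cldn5 at -0.14. Other cell lists went either way. All 8 cartilage markers averaged higher, but the mean of their list exceeded the wild-type arrays on AP-2e null replicate 2 alone. That mean was 8.29 there, 6.33 and 6.47 on AP-2e null replicates 1 and 3, and 6.46 to 6.63 on the wild-type arrays. Supporting cells had 4 higher and 4 lower. Lower were 6 of 7 skeletal muscle markers and all 6 measured multiciliated markers. The part of these cells in the Meis2 difference was not tested.

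Lhx2 and Emx2 are homeodomain factors that olfactory neurons need to express receptor genes. Lhx2 was at 8.90, 8.76 and 8.90 in wild-type and 8.81, 8.90 and 8.94 on the AP-2e null arrays of replicates 1, 2 and 3, with overlapping groups. Its difference was 0.03, with a 95% interval from -0.15 to 0.20. Emx2 was at 8.19, 8.03 and 8.38 in wild-type and 7.94, 8.05 and 8.17 in AP-2e null VNOs. Wild-type replicate 3 was highest and AP-2e null replicate 1 lowest, and the other arrays overlapped. The Emx2 difference was -0.15 (SE 0.11, 95% interval from -0.43 to 0.13), and without wild-type replicate 3 it was -0.06.

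Gli3, the hedgehog-pathway factor that acts mostly as a repressor and is needed for the formation of VNO neurons, overlapped between genotypes. It read 7.10, 6.85 and 7.14 in wild-type and 7.08, 7.05 and 6.89 on the AP-2e null arrays of replicates 1, 2 and 3. Each genotype had a lower array, wild-type replicate 2 and AP-2e null replicate 3. The difference was -0.02, with a 95% interval from -0.27 to 0.23. Of 13 measured genes of the hedgehog pathway, from ligands to the Gli2 and Gli1 factors, 0 passed in limma and 0 had an unadjusted p under 0.05, with a median difference of 0.04. The smallest p-values were those of Kif7 at 0.17 and of Boc and Smo, a co-receptor and the signal transducer, at 0.17 and 0.18. Of the 13 genes Smo had no overlap between genotypes. Over all genes, 7.06% had no overlap, and 3.42% had none and were higher. Ptch1, the receptor that is itself a target of the pathway, was at 0.01.

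Atf5 is a bZIP factor whose protein rises under the stress that receptor synthesis puts on the endoplasmic reticulum of olfactory neurons, and which these neurons need to mature. Its log2 signal was 10.06, 10.07 and 10.48 in wild-type and 9.99, 9.83 and 10.09 on the AP-2e null arrays of replicates 1, 2 and 3. Wild-type replicate 3 stood above the other 5 arrays, among which AP-2e null replicate 3 exceeded wild-type replicates 1 and 2. Mean signals were 10.20 ± 0.24 and 9.97 ± 0.13 (SD, n = 3 each), and the difference of -0.23 (SE 0.14, adjusted p = 0.873 in limma) had a 95% interval from -0.58 to 0.12. Without wild-type replicate 3 it was -0.09. Omp, the marker of mature sensory neurons, was also highest on wild-type replicate 3, at 10.48, with 9.93 on both other wild-type arrays. It read 9.87, 9.46 and 9.79 on the AP-2e null arrays of replicates 1, 2 and 3, all below the wild-type arrays, a difference of -0.41 (adjusted p = 0.873 in limma). Of the 8 measured markers of both neuron classes, Omp among them, 3 were higher and 5 lower on average, with a median difference of -0.07. Ano2 at -0.40 and Rtp1 at 0.44 were the 2 with an unadjusted p under 0.05 in limma, as had 4.4% of all genes. They differed in opposite directions. No overlap was seen for 4 of the 8, of which 3 were lower and 1, Rtp1, was higher. Over all genes, 3.64% were lower and 3.42% higher with no overlap. Trpc2 was at -0.04. The part of mature neurons in the Atf5 difference was not tested. Of 12 measured genes around this stress response, 10 had lower means in AP-2e null VNOs, 0 passed in limma and 0 had an unadjusted p under 0.05. Xbp1 and Ddit3, transcription factors of the unfolded protein response, were at -0.16 and -0.25, and Hspa5, the chief chaperone of the endoplasmic reticulum, was at -0.07 with no overlap between genotypes. The median of the list was -0.04.

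Ebf1 and Ebf2 belong to the Olf/Ebf family, which binds promoters of olfactory neuron genes, and both had narrow intervals. Ebf1 was at 10.40, 10.31 and 10.48 in wild-type replicates 1, 2 and 3 and at the identical value of 10.42 on all 3 AP-2e null arrays. Of the tested genes, 46.4% had 6 different values in the deposited data, and Ebf1 and Lhx2 were the 2 factors that did not, with 4 each, so an SD of 0 here is no sign of precision. The Ebf1 difference was 0.02, with a 95% interval from -0.13 to 0.17. Ebf2 was at 9.79, 9.64 and 9.71 in wild-type and 9.75, 9.81 and 9.73 in AP-2e null VNOs, with overlapping groups. Its difference was 0.05, with a 95% interval from -0.10 to 0.20. Ebf2 alone of the 9 had another probe set, a dim one between 3.16 and 3.96, which differed by -0.40 (unadjusted p of 0.0608 in limma). The lower quartile of all values on the arrays was 3.62.

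Nhlh1, a basic helix-loop-helix factor of newly formed neurons, was at 10.07, 9.97 and 10.04 in wild-type and 10.04, 9.96 and 10.19 on the AP-2e null arrays of replicates 1, 2 and 3. The AP-2e null arrays held both the highest and the lowest value. The difference was 0.04, with a 95% interval from -0.15 to 0.23. Markers of immature neurons overlapped likewise: of 6 genes, 0 passed in limma, 0 had an unadjusted p under 0.05, and the median difference was -0.04. Among 17 measured factors that act before and around Nhlh1 in olfactory neurogenesis, 13 had higher and 4 lower means, 0 passed in limma and 0 had an unadjusted p under 0.05, with a median of 0.08. Pax6 at 0.25, Rfx3 at -0.11 and Nfia at 0.22 had the smallest p-values, and of the 17 Rfx3 had no overlap. Genes with no overlap made up 7.06% of all genes, and those also lower in AP-2e null VNOs 3.64%. Rfx3 is also a factor of multiciliated cells, and all 6 measured markers of these were lower on average in AP-2e null VNOs, each with overlap and with 0 past the threshold and 0 with an unadjusted p under 0.05 in limma. Foxj1, the regulator of motile cilia, was at -0.40, the median of the 6 was -0.33, and the mean of the list ran from 7.46 to 8.09 in wild-type and from 7.42 to 7.61 in AP-2e null VNOs. The part of these cells in the Rfx3 difference was not tested.

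**Figure D2:**
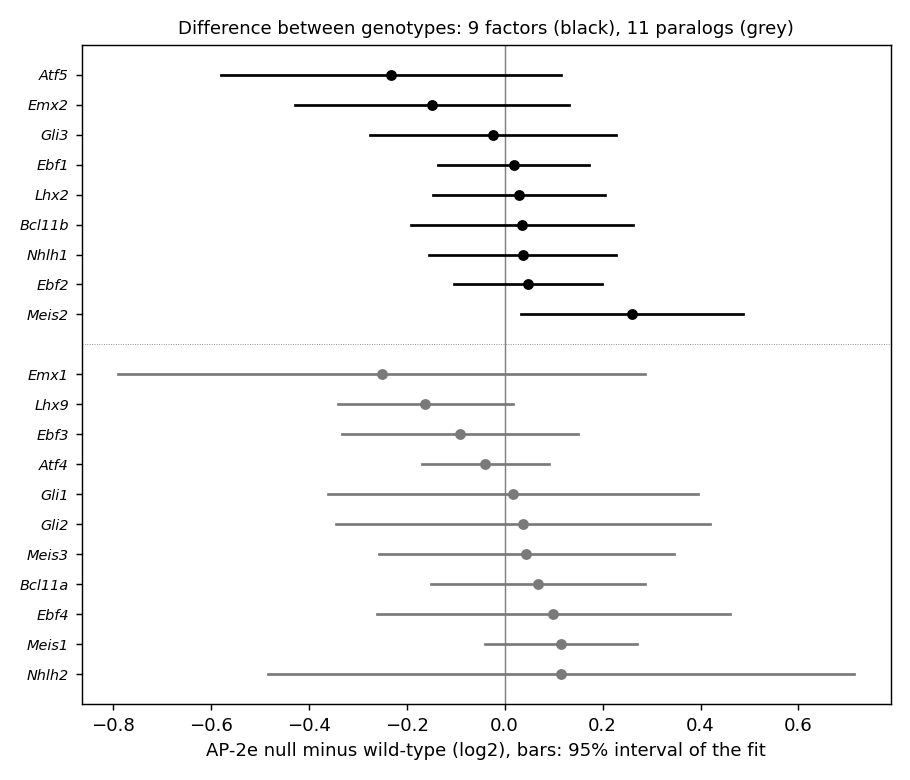
Difference between AP-2e null and wild-type VNOs (x axis, log2) for the 9 factors (black) and their 11 paralogs (grey), with the 95% interval of the fit as a bar. The Meis2 interval, from 0.03 to 0.49, is the only one of the 20 drawn that does not include 0. The intervals are not corrected for the number of genes. By limma, 4.4% of all genes fell below an unadjusted p of 0.05.

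The closest relatives of the 9 factors were read in the same way, since a paralog can carry a like function. All 11 listed paralogs were measured, and 0 passed in limma, 0 had an unadjusted p under 0.05 and 0 separated the genotypes. Bcl11a, the relative of Bcl11b, differed by 0.07, and Meis1 and Meis3 by 0.11 and 0.04. Lhx9 differed by -0.16 and Emx1 by -0.25, both dim genes with wild-type mean log2 signals of 3.76 and 4.35. Gli1 and Gli2 differed by 0.02 and 0.04, Atf4 by -0.04, Ebf3 and Ebf4 by -0.09 and 0.10, and Nhlh2 by 0.11. The Nhlh2 interval was wide, from -0.48 to 0.71, with a wild-type SD of 0.48.

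Partner proteins with which these factors bind DNA or are held in check were at most 0.18 apart. Of 13 measured partners, 12 were higher on average in AP-2e null VNOs, 0 passed in limma and 0 had an unadjusted p under 0.05, with a median of 0.06. Tcf4, an E protein of the family with which basic helix-loop-helix factors pair, was at 0.17 and was the partner with no overlap between genotypes. Pbx3, of the family that pairs with Meis proteins, was at -0.15, and Ldb1, the cofactor of Lhx2, was at 0.06. The Notch pathway, in which signals between neighbouring progenitors bear on neuronal fate, had 18 measured genes, of which 0 passed in limma. Of the 18, only Jag2, a Notch ligand at -0.17, had an unadjusted p under 0.05 (0.0315 in limma), as had 4.4% of all genes. All 3 AP-2e null arrays lay below the wild-type arrays for Jag2, as they did for 3.64% of all genes. Jag1, another ligand, was at 0.15, and Mfng, a sugar transferase that acts on Notch, at 0.25. Over the paralogs and the 5 other pathway lists together, 0 of 79 genes passed in limma. Of the 79, 1 had an unadjusted p under 0.05 (4.4% of all genes) and 5 had no overlap (7.06% of all genes).

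Bcl11b is also a factor of T cells and Ebf1 of B cells, and markers of both were read beside them. Of 7 T cell markers, 0 passed in limma and Cd4 alone, at 0.33, had an unadjusted p under 0.05, as had 4.4% of all genes. The mean of the T cell list ran from 4.73 to 4.93 in wild-type and from 4.81 to 4.96 in AP-2e null VNOs. All 7 B cell markers were higher on average in AP-2e null VNOs, 0 passed in limma, 0 had an unadjusted p under 0.05, and the mean of the list ran from 5.10 to 5.35 and from 5.31 to 5.70. The part of these cells in the Bcl11b and Ebf1 values was not tested.

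**Figure D3:**
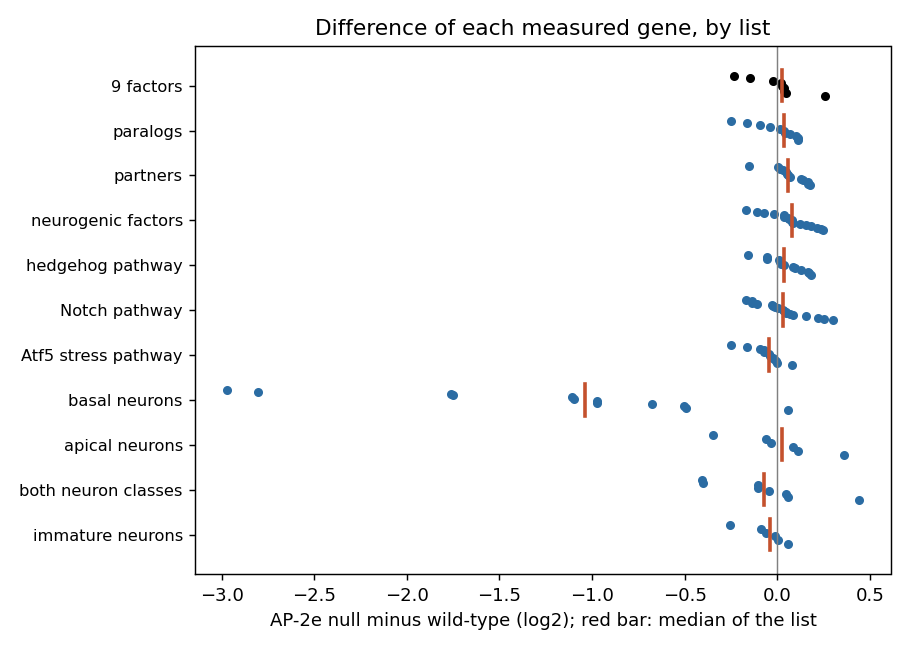
Difference between AP-2e null and wild-type VNOs (x axis, log2) of each measured gene in 11 lists, with the median of each list as a red bar. The 9 factors lie between -0.23 and 0.26, and the basal neuron list, with a median of -1.04, reaches -2.97.

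**Figure D4:**
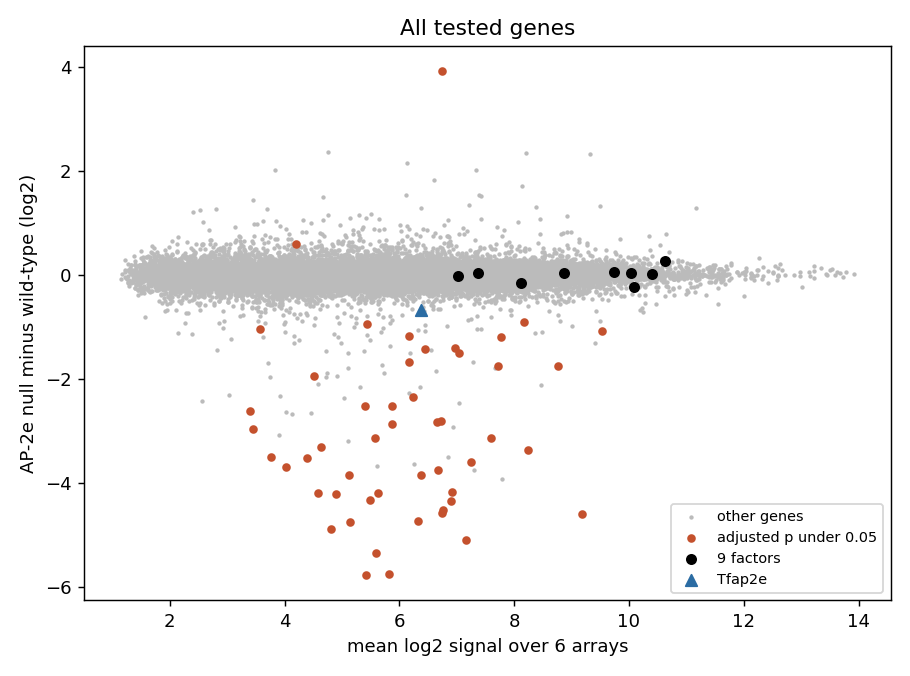
Difference between genotypes (y axis, log2) against the mean log2 signal over 6 arrays (x axis) for all 22180 genes. Red points are the 50 genes that passed, black points the 9 factors, all between -0.23 and 0.26, and the blue triangle is Tfap2e at -0.68.

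Across the 6 arrays, the genes whose signal ran most like that of Bcl11b, among 11081 genes above the median level, were Pam16, Hmgb3 and Rgl2, with Pearson's r of 0.968, 0.964 and 0.963. For Meis2 they were Csf2ra, Fer and Gm12474, with r of 0.993, 0.989 and 0.983. An r over 0.9 was reached by 30 genes for Bcl11b and by 149 for Meis2. With 6 arrays these values are a description, and all points share the arrays' normalization.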

How the data were processed

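Per the labels' protocols, total RNA of mouse VNOs was labelled by an Affymetrix whole-transcript protocol. The deposited values are log2 signals of probe sets, made with RMA and the Transcriptome Analysis Console according to the submitters' processing notes, which as read here hold no settings. Sample titles gave the genotype and the replicate number. The platform annotation names 1 gene for 23521 of 41345 probe sets, and the probe set with the highest mean was kept for each of 22180 genes, with no filter on dim genes. RMA already equalises arrays, so a shift common to all genes would not be seen.

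The genotypes were tested against each other in R 4.3.3 by limma 3.58.1, using lmFit and eBayes without covariates and 2-sided p-values, with Benjamini-Hochberg adjustment over all genes and a threshold of 0.05. A difference is the AP-2e null mean less the wild-type mean in log2, with the fit's SE and unadjusted 95% interval. In a simulation of this comparison with 22180 genes, 82 of 100 genes with a log2 change of 1 and 98 of 100 with a change of 2 were recovered, with 8 false calls among the unchanged genes. The simulated noise was normal and independent between genes, without the repeated values of the deposited data. No change smaller than 1 was simulated, so these rates do not hold for smaller differences such as those of the 9 factors. The members and lists were chosen with earlier results of these data known. Named were the 9 factors, all listed paralogs, the 3 genes with the smallest p of each other pathway list, Tfap2e, and the 3 genes most like Bcl11b and Meis2, and other genes were named after their values were seen. Settings tried were other variance moderation, other uses of probe sets, a filter on the dimmest 30%, median centring, cyclic loess, array weights, the replicate number as a block and each array left out. The 3 contrasts within arrays were added after seeing the data. Plots used matplotlib 3.10.9 in Python 3.11.15.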

Additional observations from a re-analysis of the deposited data

How the results depend on the processing

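None of the 9 factors and none of the 79 list genes passed under any of the 14 alternatives in limma, and the lowest adjusted p of a factor was 0.536, for Meis2 without wild-type replicate 2 (up to 0.942 in its other settings). Meis2, Emx2 and Atf5 kept their direction in all 14. With single arrays left out, differences near 0 changed sign, with ranges from -0.0452 to 0.0848 for Bcl11b, -0.0209 to 0.068 for Lhx2, -0.113 to 0.0338 for Gli3, -0.0254 to 0.0618 for Ebf1 and -0.0263 to 0.0888 for Nhlh1. Among paralogs the ranges were -0.0289 to 0.174 for Meis3, -0.124 to 0.167 for Gli1, -0.096 to 0.201 for Gli2, -0.0396 to 0.227 for Ebf4 and -0.155 to 0.313 for Nhlh2. When the probe sets of a gene were averaged, Ebf2 turned to -0.175 through its dim probe set, and Kif7 to -0.0743.

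Over all genes, 48 were lower and 2 higher. The higher count was 1 with the mean of probe sets, with every probe set by itself and with array weights. Leaving out single arrays gave 17 to 32 lower and 0 to 1 higher genes. With the replicate block 22 were lower and 0 higher, and no factor passed. Deviations of same-numbered arrays from their group means correlated at 0.0401, 0.11 and 0.0187, and not every array correlated best with its own number, so the numbers were not treated as pairs. Median centring moved the median of all genes by 0.00942. The contrasts within arrays cannot move under variance moderation, a dim-gene filter or median centring. With single arrays left out they lay between -0.312 and -0.145 for Bcl11b minus Meis2, -0.816 and -0.545 for Gnao1 minus Bcl11b, and -0.303 and -0.0648 (without wild-type replicate 1) for Gnai2 minus Meis2. The number of arrays limits the precision.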
